A study of Mus musculus with 3 samples.

Results

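The cells described here are T cell barcodes of the mouse aorta that carried RNA of gamma-delta T cell receptors or of type 17 genes. Of 25822 barcodes called as cells in 3 libraries, 20903 held at least 200 detected genes and at most 10% mitochondrial counts, and 385 of these were CD3 barcodes: at least 2 unique molecular identifiers (UMIs, counted RNA molecules) summed over Cd3d, Cd3e and Cd3g, with none of Cd79a (B cells) or Csf1r (macrophages). The members, 57 of these 385, had at least 2 UMIs summed over the 4 marker genes Trdc, Tcrg-C1, Cd163l1 and Il17a and no UMI of Cd4, Cd8a or Cd8b1. They were set against the 328 other CD3 barcodes. The members were chosen by the measured UMIs of these 12 genes, so the values of these genes are given as a description and were not tested.

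Gamma-delta T cells carry a receptor of a gamma and a delta chain in place of the alpha and beta chains of most T cells. Many of those lodged in skin, fat and other tissues are set in the thymus, under transcription factors such as SOX13 and MAF, to make interleukin-17A when they meet interleukin-1 or interleukin-23. Interleukin-17A acts on stromal and endothelial cells and draws neutrophils, and cells of this kind are known in the adventitia, the outer layer of the artery. Alpha-beta T cells can make the same cytokine, so the marker genes do not tell the receptor type by themselves.

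The study profiled live CD45+ cells sorted from digested whole aortas, adventitia included, by droplet 3′ RNA sequencing. All groups were mice labelled ApoE-/- on C57BL/6J, a strain that clears lipoproteins poorly and develops atherosclerosis. The control group was labelled with no other treatment, the group labelled HHcy drank water with homocysteine (Hcy) at 1.8 g/L for 4 weeks, and the group labelled WD was fed a western diet for 4 weeks. Each group was 1 library, and the labels used here give neither the age nor the number of mice in it.

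The libraries held 7512, 9753 and 8557 called barcodes in the order control, labelled HHcy and WD, which is the order used below. Apoe, the gene disrupted in the strain, stood at 16.3, 374 and 19.3 CPM (a gene's summed UMIs, scaled so that every sum has the same total), so the library labelled HHcy goes against its genotype label. Pairs of libraries shared 20 to 24 called barcodes, and none of these was a CD3 barcode. The members came from 16, 21 and 20 barcodes with 109934, 127403 and 154551 UMIs in all and medians of 6680.5, 5217 and 6773.5 UMIs. The other CD3 barcodes had medians of 4506, 6412.5 and 4997.5 UMIs. Ptprc, which encodes CD45, was read in 15 of 16, 21 of 21 and 20 of 20 members.

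Members made up a like share of the CD3 barcodes in each library. They were 16 of 108, or 14.8% (exact Clopper-Pearson 95% interval 8.71 to 22.9), in the control library. In the library labelled HHcy they were 21 of 153, or 13.7% (8.70 to 20.2), and in the WD library 20 of 124, or 16.1% (10.1 to 23.8). The log2 ratio of the share to the control in the library labelled HHcy was -0.11 (95% interval -0.98 to 0.76), and the WD library gave 0.12 (-0.75 to 1.00). Both intervals span 0 and cover counting error only, so differences of up to 1 on the log2 scale were not detectable at this depth. As a share of all barcodes kept, the members were 0.265%, 0.258% and 0.298%.

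Few members lay at the limit of the rule. Members with a marker sum of exactly 2 numbered 1, 3 and 0, and barcodes that met every other part of the rule with a marker sum of 1 numbered 2, 3 and 3. Members with a marker sum of 10 or more numbered 5, 12 and 12, and the median sum was 6, 16 and 12.5. Many barcodes that carried the markers lay outside the rule because they also held Cd79a or Csf1r RNA: 21 of 45, 69 of 98 and 60 of 91 kept barcodes with a marker sum of 2 or more, with median depths of 13867, 22031 and 22872 UMIs.

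Trdc encodes the constant part of the delta chain and Tcrg-C1 that of a gamma chain. In the mm10 build, by the GENCODE M21 annotation, Trdc lies at chr14:54142851-54148868 on the plus strand, between the variable segment Trdv4 (chr14:54074905-54075515) and the alpha chain constant gene Trac (chr14:54220521-54224206), so the delta genes sit inside the alpha chain locus. Tcrg-C1 lies at chr13:19214103-19217024. Cd163l1, a scavenger receptor family gene read in gamma-delta T cells, lies at chr7:140218267-140231145, and the cytokine gene Il17a at chr1:20730905-20734496.

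Trdc was read at 1155, 1091 and 1022 CPM in the members, Tcrg-C1 at 437, 494 and 589 CPM, and Cd163l1 at 291, 542 and 654 CPM. Il17a was read at 455, 926 and 602 CPM. A single member of the library labelled HHcy held 93 of the 118 Il17a UMIs there, with no Trdc and no Trac UMI, and the other 20 members came to 202.5 CPM. The order of the libraries in Il17a therefore rested on 1 barcode. Il17a was not confined to the members. Other CD3 barcodes with Cd4 or Cd8 RNA and a marker sum of 2 or more numbered 6, 5 and 4. They held 26, 11 and 75 Il17a UMIs, against 50, 118 and 93 in the members. Outside the members, Trdc was read in 4 of 92, 6 of 132 and 2 of 104 other CD3 barcodes. Among CD3 barcodes with Cd4 and no Cd8, a type that should lack Trdc, it was read in 0 of 22, 0 of 37 and 0 of 30, which allows shares of such barcodes with a Trdc UMI of up to 13.6%, 8.11% and 10.0%; this limits barcodes with a UMI, not cells that express the gene. The median depth of those barcodes was 5348, 6816 and 6047 UMIs, close to that of the members.

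**Figure D1:**
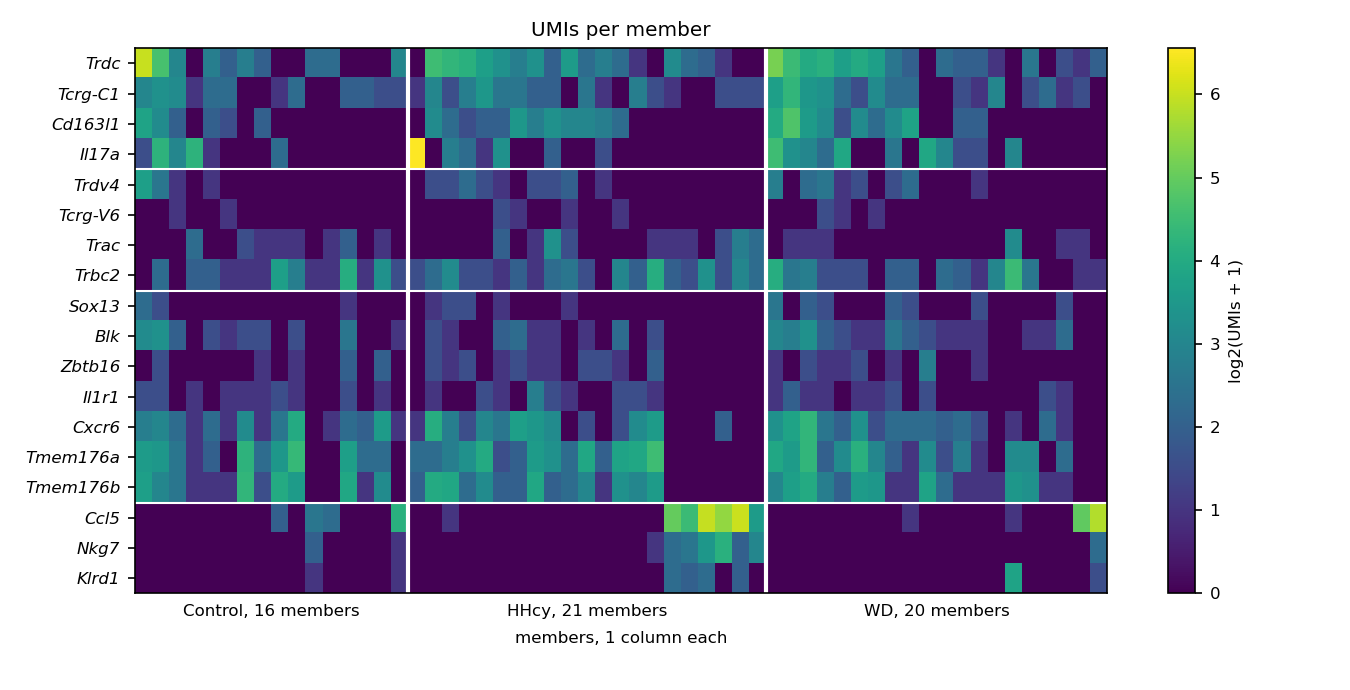
UMIs of 18 genes (rows, log2(UMIs + 1) as colour) in each of the 57 members (columns), by library; within a library, members with 10 or more Ccl5 UMIs stand at the right and the others are ordered by the sum of the 4 marker genes in the top block. The 9 members with 10 or more Ccl5 UMIs show no Tmem176b, and 46 of the other 48 do.

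The 4 markers were unevenly shared among the members. All 4 were read in 18 members and a single one in 16. Trdc was read in 44 members, Tcrg-C1 in 45, Cd163l1 in 29 and Il17a in 24. Each of the 29 members with Cd163l1 also held Trdc, which the rule did not ask for. By their receptor constant genes, 29 members held Trdc and no Trac, 15 held both, 9 held Trac and no Trdc, and 4 held neither. Trdc RNA was thus read in 44 of 57 members, but the rule picked members partly by Trdc, so this count is not support for the label. Of these 44, 15 also held Trac, and RNA of a constant gene does not show a receptor. In the other 13 members the label "gamma-delta" is carried by RNA of no delta gene.

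Among the variable segments, which the rule did not use, Trdv4 and Tcrg-V6 fell within the Cd163l1 members. Trdv4 and Tcrg-V6 are the segments paired in a gamma-delta T cell lineage that arises before birth, settles in tissues and makes interleukin-17A. Trdv4 was read in 4, 9 and 8 members, 21 in all, and each of these held both Trdc and Cd163l1. Tcrg-V6 was read in 9 members, each again with Trdc and Cd163l1, and 5 of them also held Trdv4. Trgv2, another gamma segment, was read in 11 members, with and without Cd163l1, and Tcrg-V4 and Tcrg-V5 in 2 members each. The segments or constant genes of the list without a UMI in any member were Tcrg-C3, Tcrg-V1, Tcrg-V3, Tcrg-V7, Trdv1, Trdv2-2, Trdv3 and Trdv5. The median member held 4 Trdc UMIs, so an unread segment does not show that it was absent.

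In the whole transcriptome, members differed from the other CD3 barcodes in genes of the type 17 lists, among others. UMIs were summed within each library and class, giving 6 sums, and tested with edgeR's quasi-likelihood test with the library as a block, so the 3 libraries stand as replicates across 3 treatments. Of 5141 genes tested, 171 were higher (3.33%) and 86 lower (1.67%) in members at an adjusted p under 0.05 (Benjamini-Hochberg over the 5141 genes), and the median log2 fold change was -0.02. Without the control library, which left 2 libraries, 30 genes were called higher and 19 lower. The 12 genes of the rule were left out of the test.

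Trdv4 was also called higher. It was read at 173, 149 and 162 CPM in members and at 0, 0 and 1.51 CPM in the other CD3 barcodes, where 1 UMI was found, a log2 fold change of 7.77 (SE 0.60, edgeR adjusted p = 0.000131). The lowest member level lay far above the highest level outside. With 1 UMI outside, Trdv4 passed the filter on low counts through the member sums alone. It is a segment of the delta chain, whose constant gene Trdc the rule used. Its call is therefore close to what the rule fixed and is not separate support for the label. Of the 15 gamma-delta receptor genes found in the files, 4 could be tested and 3 rose, Trdv4, Tcrg-C2 and Tcrg-C4, with none lower. Tcrg-C2 stood at 100.1, 86.3 and 227 CPM against 31.0, 22.7 and 24.2 CPM (log2 2.32, SE 0.37), but its sequence is close to that of Tcrg-C1 and the split of reads between them is uncertain. Trgv2, the fourth, had a log2 fold change of 2.15 and an edgeR adjusted p of 0.0503.

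Alpha-beta receptor genes were lower but present. Trac stood at 127, 235.5 and 84.1 CPM in members against 445, 417 and 460.5 CPM (log2 -1.66, SE 0.30, edgeR adjusted p = 0.0120). Trbc2, a constant gene of the beta chain, stood at 555, 683 and 531 CPM against 976, 1317 and 1169 CPM (log2 -1.01, SE 0.16) and was read in 50 of the 57 members. Of the 7 genes of this list, 4 fell, Trac, Trbc2, Cd5 and Cd6, and none rose, beside 1.67% of all genes called lower. Cd5 and Cd6 encode surface proteins that dampen signals of the T cell receptor, and stood at 18.2, 31.4 and 51.8 CPM and at 72.8, 15.7 and 25.9 CPM in members, each below its lowest level outside. Trbc1 had a log2 fold change of -0.61 and an edgeR adjusted p of 0.371. Without 4 members and 20 other CD3 barcodes rich in RNA of other cell types, described below, Trac had a log2 fold change of -1.80 and an edgeR adjusted p of 0.0537.

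Of 11 tested type 17 transcription factors, 6 rose and none fell, beside 3.33% higher and 1.67% lower of all genes tested. The list median was 1.21. Sox13 was read at 63.7, 54.9 and 123 CPM in members and had no UMI in any other CD3 barcode. It thus passed the filter on low counts through the member sums alone. Against a floor of 3 counts over the group outside, it was at least 65.8-fold higher. Zbtb16, which encodes PLZF, a factor of innate-like T cells, stood at 91.0, 141 and 97.1 CPM against 15.51, 9.97 and 6.06 CPM (log2 3.39, SE 0.42). Zbtb16 also passed the filter through the member sums alone, so like Sox13 it could only be called higher.

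Rora and Maf had smaller fold changes than Sox13 and Zbtb16. Rora, a nuclear receptor gene of type 17 and innate lymphoid cells, stood at 1010, 722 and 1035 CPM against 229, 193 and 247 CPM (log2 1.99, SE 0.18). Maf stood at 464, 447 and 466 CPM against 207, 145 and 238 CPM (log2 1.21, SE 0.21). Blk, a kinase of the Src family known from B cells and interleukin-17 gamma-delta T cells and kept in this list, stood at 318, 149 and 311 CPM against 10.3, 3.62 and 9.09 CPM (log2 5.02, SE 0.31, edgeR adjusted p = 2.75e-05). Blk too passed the filter through the member sums alone and could only be called higher. Member and outside levels did not overlap for Sox13, Zbtb16, Rora, Maf or Blk. Genes called across the 3 libraries are selected for such a separation, so it is not separate support. The share of all tested genes without overlap was not counted.

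Of 9 tested receptors of type 17 cells, 8 rose and none fell, beside 3.33% of all genes called higher. The list median was 2.16. Il1r1, the receptor of interleukin-1, stood at 127, 141 and 97.1 CPM in members against 1.72, 7.25 and 9.09 CPM (log2 4.20, SE 0.47, edgeR adjusted p = 0.00107). Il1r1 passed the filter on low counts through the member sums alone and could only be called higher. Il18r1, part of the interleukin-18 receptor, stood at 446, 322 and 252 CPM against 75.8, 51.6 and 65.1 CPM (log2 2.35, SE 0.24). Il7r, the receptor of the survival cytokine interleukin-7, stood at 891, 832 and 854 CPM against 283, 258 and 233 CPM (log2 1.70, SE 0.18). Each of these was high in the members of every library.

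The chemokine receptors Cxcr6 and Ccr2 also rose. Cxcr6, a receptor of tissue T cells, stood at 655, 730.0 and 563 CPM against 117.2, 71.6 and 112 CPM (log2 2.68, SE 0.25, edgeR adjusted p = 0.000522). Ccr2 stood at 482, 259 and 518 CPM against 172, 93.3 and 183 CPM (log2 1.44, SE 0.20). Ltb4r1, Il17re and Icos were the other called receptors. Il23r, the receptor of interleukin-23, did not pass the filter on low counts: it was read in 14 members, at 18.2, 94.2 and 32.4 CPM, against 0, 1.81 and 4.54 CPM outside. Ccr6, a receptor of many type 17 cells, was read in 5 members and was not tested.

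Of 17 tested effector and associated genes, 11 rose and none fell, beside 3.33% of all genes called higher. The list median was 2.05. Tmem176a and Tmem176b encode related ion channels of endosomal membranes and are neighbours on chromosome 6. Tmem176a stood at 928, 1044 and 776 CPM in members against 84.5, 74.3 and 95.4 CPM (log2 3.39, SE 0.23, edgeR adjusted p = 4.03e-05), and Tmem176b at 882, 832 and 692 CPM against 69.0, 62.5 and 108 CPM (log2 3.31, SE 0.26). Tmem176b was read in 46 of 57 members. S100a4, a calcium-binding protein of motile cells, stood at 2492, 2669 and 2536 CPM against 914, 761 and 1071 CPM (log2 1.46, SE 0.15).

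The other members of this list that rose were Kcnk1, 5830411N06Rik, Ramp1, Actn2, Capg, Serpinb1a, Podnl1 and Ckb. 5830411N06Rik, a scavenger receptor gene near Cd163l1 on chromosome 7, was read in 6 members and stood at 155, 31.4 and 45.3 CPM against 0, 5.44 and 6.06 CPM (log2 3.84, SE 0.78). It passed the filter on low counts through the member sums alone. A single WD member held 47.8% of all Serpinb1a UMIs of the members. Among type 17 cytokines other than Il17a, Il17f had 2 UMIs, Il22 had 2, Csf2 had 5 and Il21 had none over all members. Without the control library the counts called higher were 3 of 11 transcription factors, 4 of 10 receptors and 6 of 17 effector and associated genes, beside 0.533% of all genes tested. The 3 lists were written with earlier results of these data known, and they hold genes that passed the filter through the member sums alone. These counts are therefore not independent evidence of their direction.

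**Figure D2:**
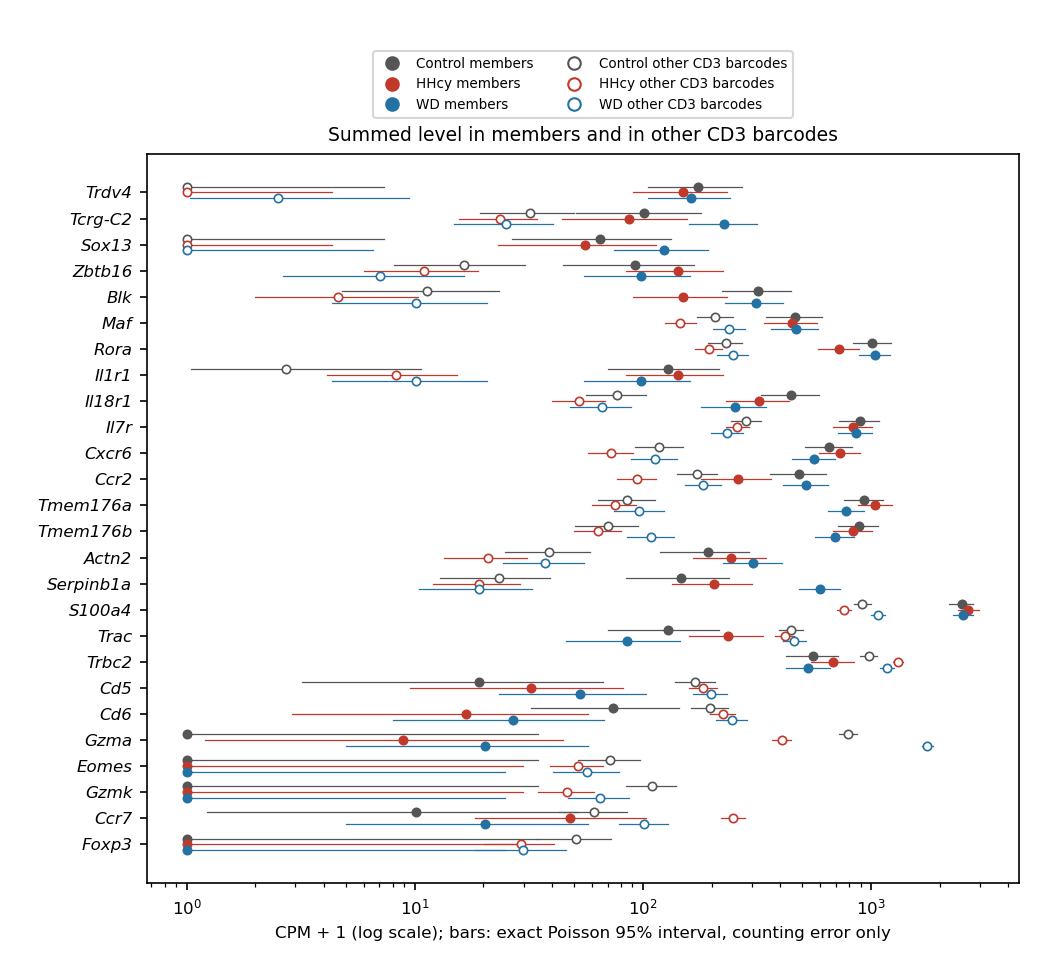
CPM + 1 on a log axis for 26 genes in members (filled points) and other CD3 barcodes (open points) of each library, with exact Poisson 95% intervals that cover counting error only. Type 17 genes such as Blk and Tmem176b lie to the right in members in all 3 libraries, and Gzma and Ccr7 lie to the left.

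The other genes among the 12 called genes with the largest fitted fold change were Zfp462, Pde5a, Ablim3, Ly6g5b, Abi3bp and Acpp, none of which stands on a list. Zfp462, a zinc finger gene, stood at 54.6, 54.9 and 45.3 CPM in members against 0, 0 and 4.54 CPM, and was read in 14 members. Pde5a, a phosphodiesterase of cyclic GMP, stood at 63.7, 54.9 and 84.1 CPM against 3.45, 0.906 and 3.03 CPM, and was read in 20. Zfp462 and Pde5a passed the filter on low counts through the member sums alone and could only be called higher. Member levels lay above the outside levels in every library, with log2 fold changes from 3.91 (Acpp) to 4.97 (Zfp462).

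Because the other CD3 barcodes mix several T cell types, the members were also set against those with Cd8 and no Cd4 and those with Cd4 and no Cd8, comparisons chosen after the data were seen. Against the Cd8 barcodes, 6 of 9 tested type 17 transcription factors, 7 of 8 receptors and 11 of 14 effector and associated genes were higher, beside 8.59% of all 2653 genes tested. Against the Cd4 barcodes, 4 of 8, 5 of 8 and 8 of 15 were higher, beside 4.06% of 2663. Maf was higher than in Cd8 barcodes (log2 3.68, edgeR adjusted p = 1.69e-07) and had a log2 fold change of 0.35 against Cd4 barcodes (edgeR adjusted p = 0.462). Icos, a costimulatory receptor, gave 2.34 and 0.54 in the same comparisons, with edgeR adjusted p of 0.000965 and 0.252. The difference between the comparisons was not tested.

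Among the lowest genes in members were genes of Cd8 and regulatory T cells, and neutrophil genes, given further on. Gzmk and Eomes, a granzyme and a transcription factor of memory Cd8 T cells and NK cells, had no UMI in any member and stood at 109, 45.3 and 63.6 CPM and at 70.7, 50.7 and 56.1 CPM outside. Against a floor of 3 counts over the members, they were at least 8.64-fold and 7.47-fold lower. Gzma, another granzyme, stood at 0, 7.85 and 19.4 CPM against 791, 404 and 1766 CPM (log2 -6.71, SE 0.39, edgeR adjusted p = 1.83e-05). Foxp3, the factor of regulatory T cells, had no UMI in any member and was at least 4.40-fold lower. Gzmk, Eomes, Gzma and Foxp3 passed the filter on low counts through the sums outside alone, so they could only be called lower. The rule removes barcodes with Cd4 and Cd8 RNA from the members and leaves them outside, so these genes are close to what it chose.

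Of 20 tested type 1 and cytotoxic genes, 4 fell, Eomes, Gzma, Gzmk and Ccl3, beside 1.67% of all genes called lower. None rose, and the list median was -1.92. The count called lower moved with 1 library: without the library labelled HHcy 13 of 20 were called lower, and without the control library 1 of 21. Over all genes tested the shares called lower there were 1.47% and 0.338%. In members that held Trdc and no Trac, 8 of 19 were called lower, beside 0.953% of all genes. Ccl5, a chemokine of cytotoxic T cells, stood at 264, 1837 and 563 CPM in members against 6051, 3237 and 6573 CPM outside, and Nkg7, a protein of cytotoxic granules, at 36.4, 369 and 25.9 CPM against 1031, 632 and 1206 CPM. Member and outside levels of Ccl5 did not overlap, yet its edgeR adjusted p was 0.365, with a log2 fold change of -2.93. The gap was smallest in the library labelled HHcy.

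Members with 10 or more Ccl5 UMIs, a limit chosen after the data were seen, numbered 9 and stood apart from the other 48. They were 1 of 16, 6 of 21 and 2 of 20 members. None of the 9 held a UMI of Cd163l1, Il17a, Trdv4, Tmem176a, Tmem176b, Zbtb16 or Il1r1, while Tmem176b was read in 46 of the other 48. Nkg7 was read in 8 of the 9 and in 2 of the 48, and Ly6c2, a surface protein of memory Cd8 T cells and monocytes, in 8 and 3. S100a4 was read in 2 of the 9 and in 48 of the 48. The median depth was close, at 6023 and 6104 UMIs.

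These 9 members were not without gamma-delta receptor RNA. Trdc was read in 7 of them, Tcrg-C1 in 6, Trac in 6 and Trbc2 in 9. Cd27, a costimulatory receptor that marks interferon-gamma rather than interleukin-17 gamma-delta T cells, was read in 5 of the 9 and in 2 of the 48. Type 17 genes varied: Il7r was read in 7 of the 9 and Il18r1 in 5, while Rora was read in 2, Cxcr6 in 2, Maf in 1 and Icos in 1. Of the other 48 members, 43 held Il7r, 36 Il18r1 and 35 Icos. Sox13 was read in 0 of the 9 and Blk in 1. Apart from Il7r and Il18r1, the type 17 genes given here were read in few or none of these 9 members. The label of type 17 cells is thus largely unmet in them.

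Within the receptor groups, type 17 genes were not limited to members with Trdc. Of the 9 members with Trac and no Trdc, 7 held Tmem176b, 8 Maf and 8 Rora, and none held Cd163l1 or Trdv4. Of the 29 with Trdc and no Trac, 25 held Tmem176b, 21 Blk and 15 Trdv4. Il17a was read in 3 of 9 and 14 of 29. These are counts of barcodes with at least 1 UMI and move with depth, which was 8495 UMIs at the median in the first group and 5759 in the second.

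**Figure D3:**
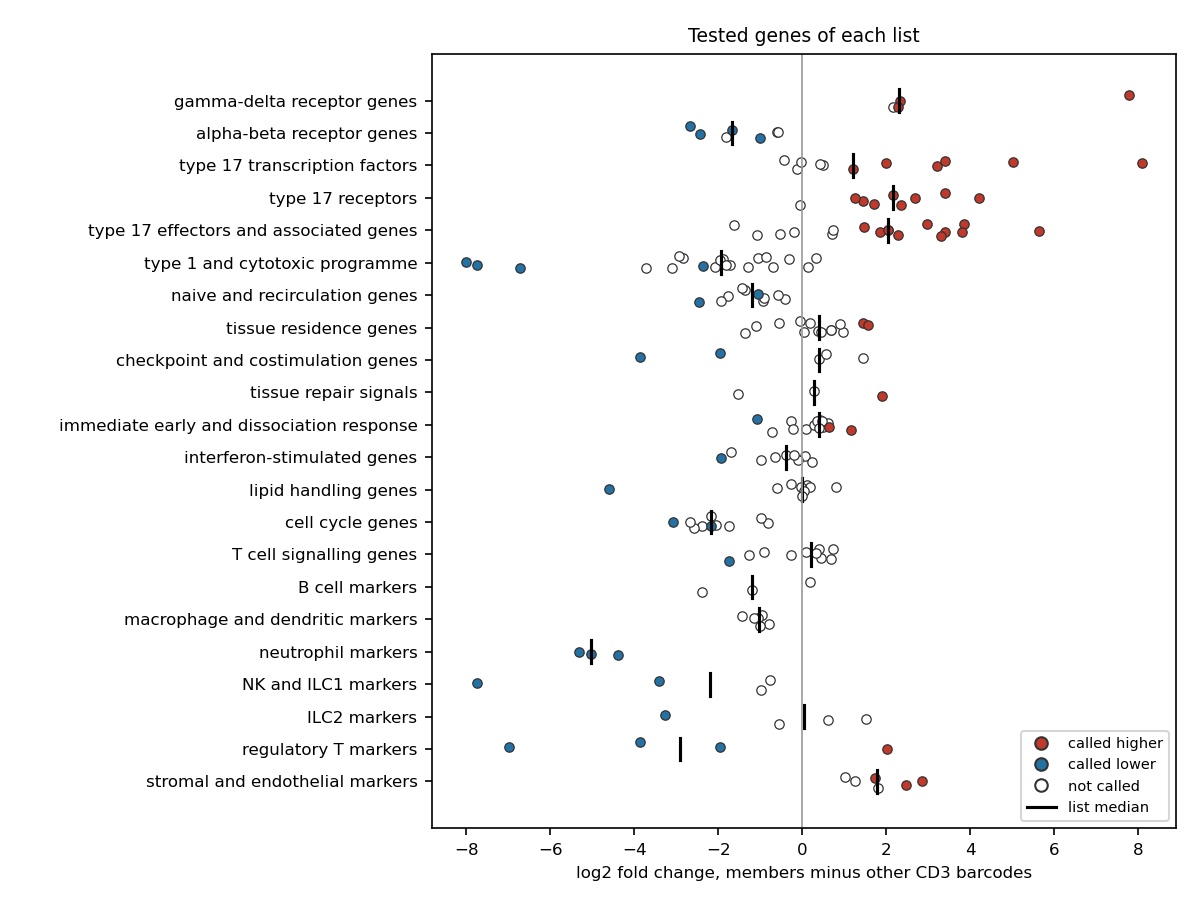
log2 fold change of each tested gene (members minus other CD3 barcodes) by list, with called genes filled red (higher) or blue (lower), genes not called open, and the list median as a black bar. Of the 22 lists, the 3 type 17 lists hold 25 genes called higher and none lower, beside 3.33% and 1.67% of all genes tested. The neutrophil list has the lowest median, at -5.03.

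Of 10 tested naive and recirculation genes, 2 fell and none rose, beside 1.67% of all genes called lower. The list median was -1.20. Ccr7, which guides T cells into lymph nodes, stood at 9.10, 47.1 and 19.4 CPM in members against 60.3, 248 and 100.0 CPM (log2 -2.45, SE 0.35, edgeR adjusted p = 0.00334). Klf2, a factor of circulating T cells, had a log2 fold change of -1.04 (edgeR adjusted p = 0.0394), although its levels overlapped between the classes. Without the control library neither Ccr7 nor Klf2 passed the test. Of 14 tissue residence genes, 2 rose, Crem and Gpr183, and none fell, beside 3.33% of all genes called higher. Gpr183, an oxysterol receptor that steers immune cells, stood at 473, 337.5 and 408 CPM against 115.5, 149.5 and 129 CPM (log2 1.58, SE 0.23).

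Among the regulatory T markers, Il2ra, the high-affinity interleukin-2 receptor, rose while Foxp3, Ctla4 and Tnfrsf4 fell. Il2ra stood at 309, 196 and 175 CPM in members against 53.4, 43.5 and 63.6 CPM (log2 2.01, SE 0.28, edgeR adjusted p = 0.00272). Furin, a protease that activates growth factors, stood at 791, 306 and 323.5 CPM against 98.3, 96.97 and 144 CPM (log2 1.91, SE 0.34) and was the one called gene of 3 tested repair genes. Areg, an epidermal growth factor ligand made by some tissue T cells, had 13 UMIs over all members and was not called. Of 9 lipid handling genes, Fabp5, a fatty acid carrier, fell and no gene rose. Of 9 interferon-stimulated genes, Ifi27l2a fell and none rose. Of 15 immediate early genes, Jun and Junb rose and Hsp90aa1 fell. Over all genes tested, 3.33% were higher and 1.67% lower, so a single call says little about its list.

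Markers of other cell types differed between the classes and bear on these counts. All 3 tested neutrophil markers, S100a8, S100a9 and Retnlg, were lower in members, where the 6 genes of the list summed to 81.9, 228 and 175 CPM against 2422, 5524 and 3996 CPM outside. The 8 genes of the NK and ILC1 list summed to 54.6, 165 and 602 CPM against 688, 441 and 692 CPM, and Ncr1, which defines NK cells, was at 0 in members. The 10 ILC2 genes summed to 891, 180.5 and 220.0 CPM against 452, 209 and 377 CPM. The 8 B cell genes summed to 591, 989 and 2413 CPM against 5856, 1944 and 1065 CPM, with none of 3 tested genes called. The 12 macrophage and dendritic genes summed to 446, 596.5 and 1417 CPM against 1791, 1478 and 1371 CPM, with none of 6 called. The part of these cell types in the results was not tested, except that S100a8 had an edgeR adjusted p of 0.540 against the Cd8 barcodes and 0.295 against the Cd4 barcodes.

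Stromal genes rose in members through 2 barcodes. The 9 genes summed to 146, 3281 and 3222 CPM in members against 39.7, 494 and 1278 CPM, and Col3a1, Dcn and Lum were called higher. For Col1a1, Col1a2, Col3a1, Dcn and Lum together, a single member of the library labelled HHcy held 410 of 411 UMIs and a single WD member 480 of 481. Another WD member held 2153 of the 2154 UMIs of the mast cell genes Cma1, Cpa3, Mcpt4 and Tpsb2 in that library, and another held 300 of 333 Cd74 UMIs and 119 UMIs of H2-Ab1, both genes of antigen-presenting cells. These 4 members, each with at least 12770 UMIs, gave 13.9% of all member UMIs in the library labelled HHcy, and those of the WD library 31.3%.

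Without such barcodes in either class, only 1 stromal gene was left to test and it was not called, a result close to what the choice of barcodes fixes. Transcription factors called higher were 6 of 11, receptors 8 of 9, and effector and associated genes 12 of 15, with 2 of the last list lower. Over all genes, 237 were higher (5.38%) and 129 lower (2.93%) of 4404 tested. The limits behind this comparison, 10 UMIs of stromal or of mast cell genes or 50 UMIs of Cd74, were chosen after the data were seen.

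Short sequences before the start sites of genes were searched as follows. RORA, the product of Rora, binds sites that hold the letters AGGTCA, which reads TGACCT on the other strand, and these 6 letters were searched on both strands in the 250 bases before the start sites of the RefSeq promoters (GRCm38.p6). Il17a, the cytokine of the rule, and S100a4, called higher, are shown because each holds 1 match. Lower case gives the sequence from 5′ to 3′ on the gene's strand, and capitals mark the match. The stretches lie at chr1:20730655-20730904 (plus strand) and chr3:90603520-90603769 (plus strand).
Il17a: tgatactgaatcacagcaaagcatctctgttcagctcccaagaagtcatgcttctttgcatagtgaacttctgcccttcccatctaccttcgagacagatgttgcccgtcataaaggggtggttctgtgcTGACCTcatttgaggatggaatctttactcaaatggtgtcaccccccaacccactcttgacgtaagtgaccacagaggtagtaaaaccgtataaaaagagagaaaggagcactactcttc
S100a4: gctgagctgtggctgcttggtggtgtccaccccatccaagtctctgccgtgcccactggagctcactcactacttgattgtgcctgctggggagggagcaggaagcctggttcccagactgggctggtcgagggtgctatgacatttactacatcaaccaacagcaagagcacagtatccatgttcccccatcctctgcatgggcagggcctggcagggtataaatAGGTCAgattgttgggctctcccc

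The match begins 120 bases before the start site in Il17a and 24 in S100a4. Of the 171 genes called higher in members, 132 had a promoter in the table, and 17.4% of those held the letters, against 13.1% of the 4121 tested genes that had one and 11.9% of 67 called lower. Of 18 type 17 genes called higher with a promoter in the table, 4 held it: S100a4, Capg, Actn2 and 5830411N06Rik. Sox13, Rora, Il1r1, Cxcr6, Tmem176a and Tmem176b held no match in this window. A match is a string of letters and not a bound site.

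Between libraries the members could be described but not tested, since each group was 1 library. UMIs were summed over the members of each library, and genes with at least 20 UMIs in the pair were compared as log2 ratios of CPM with exact conditional binomial intervals, which cover counting error only. Against the control, the library labelled HHcy had 106 of 1849 genes over 2-fold higher (5.73%) and 132 over 2-fold lower (7.14%). The WD library had 197 of 2198 over 2-fold higher (8.96%) and 148 lower (6.73%). The comparisons share the control members, so they are not independent.

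The type 17 lists had median log2 ratios near 0, while single genes lay on both sides. The median log2 ratio of the 8 type 17 transcription factors with enough UMIs was 0.07 in the library labelled HHcy, while 10 of them gave 0.05 in the WD library. The receptors gave -0.27 and -0.04, and the effectors 0.14 and 0.01. For Maf the ratio was -0.05 (95% interval -0.62 to 0.52) and 0.00 (-0.53 to 0.55). For Cxcr6 it was 0.15 (-0.30 to 0.62) and -0.22 (-0.69 to 0.25). The intervals of Maf and Cxcr6 span 0.

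Other type 17 genes had counting intervals that did not span 0. In the library labelled HHcy, Blk, a kinase, had a log2 ratio of -1.08 (-1.98 to -0.25), the chemokine receptor Ccr2 -0.89 (-1.57 to -0.24), Icos -0.83 (-1.44 to -0.24) and the transcription factor Rora -0.48 (-0.90 to -0.07). In the other CD3 barcodes the ratios there were -1.46 (few UMIs), -0.89, 0.37 and -0.25 in the same order. Among members with under 10 Ccl5 UMIs, control and labelled HHcy levels of Blk were 327.5 and 207 CPM. Those of Icos were 607 and 436.5 CPM, and those of Rora 1069 and 949 CPM. The part of members with 10 or more Ccl5 UMIs in these ratios was not tested. In the WD library Blk, Ccr2, Icos and Rora lay between -0.04 and 0.10, and Il18r1 had -0.82 (-1.47 to -0.18). Ikzf2, which encodes the transcription factor Helios, had 14 UMIs in 6 control members, 45 UMIs in 15 members of the library labelled HHcy and 50 UMIs in 14 WD members. Its log2 ratios were 1.44 (0.58 to 2.45) and 1.31 (0.47 to 2.31), so both libraries lay above the control. The scavenger receptor family gene 5830411N06Rik lay below it in both, at -2.17 and -1.71, with its UMIs in 2 members of each library, and the cytokine gene Ltb above, at 0.57 and 0.88. Serpinb1a, Ly6a and Sox4 were above the control in the WD library, with 69.6%, 74.1% and 96.3% of their UMIs in 1 member each. These intervals cover counting error in 1 library a group, and no difference between groups was tested.

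Type 1 and cytotoxic genes were higher in members of the library labelled HHcy. Of 7 such genes with at least 20 UMIs, 5 were over 2-fold higher than in the control and none over 2-fold lower, with a median log2 ratio of 1.37. Ccl5 was at 29 UMIs in 4 members of the control and 234 UMIs in 7 members of the library labelled HHcy (264 to 1837 CPM, log2 ratio 2.78, 95% interval 2.24 to 3.41). Nkg7 was at 4 UMIs in 2 members of the control and 47 UMIs in 7 members of the library labelled HHcy (36.4 to 369 CPM, log2 ratio 3.19, 1.89 to 5.28). The 6 members with 10 or more Ccl5 UMIs held 233 of the 234 Ccl5 UMIs there. Ccl4 and Xcl1, 2 more of the 5, had 79.7% and 78.9% of their UMIs in 1 member, the same for both. In the other CD3 barcodes the ratios of Ccl5 and Nkg7 were -0.90 and -0.71.

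In the WD library the same list had a median log2 ratio of 0.05 over 5 genes. Ccl5 stood at 87 UMIs in 4 members, 563 CPM (log2 ratio 1.08, 0.47 to 1.75), and 63.2% of these UMIs lay in 1 member. With 1, 6 and 2 Ccl5-rich members, a difference between libraries and the treatment cannot be told apart.

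Lmo4, Pdcd1 and Cd40lg differed between libraries over several members. Lmo4, a transcription cofactor, had 113 UMIs in 9 control members and 16 UMIs in 10 WD members (1028 to 103.5 CPM, log2 ratio -3.27, 95% interval -4.17 to -2.55). Pdcd1, which encodes the inhibitory receptor PD-1, had 1 UMI in 1 of 16 control members and 27 UMIs in 10 of 20 WD members (9.10 to 175 CPM, log2 ratio 3.71, 1.66 to 9.62), and stood at 126 CPM in the library labelled HHcy. Cd40lg, a costimulatory ligand, had 19 UMIs in 6 control members against 1 UMI in that labelled HHcy and 3 in the WD library (log2 ratios -3.91 and -2.97). In the other CD3 barcodes the ratios of Cd40lg were -0.93 and -0.89.

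Other extremes came from single members. The 8 highest ratios of the library labelled HHcy (among them Mgp, Timp3, Igfbp7, Bgn, Lum, Ccn2 and Mmp3) and the 8 highest of the WD library (Cma1, Mgp, Tpsb2, Mcpt4, Cpa3, Bgn, Igfbp7 and Fcer1a) each had at least 96.9% of their UMIs in 1 member. Most of the 8 lowest ratios in each library were genes of dividing cells, among them Mki67, Ube2c, Hist1h2ap and Hist1h2ae. In the control library, 2 members held 97 of the 98 UMIs of the cell cycle genes Mki67, Top2a, Birc5, Cdk1, Ccnb2 and Pclaf. The other lowest genes in the library labelled HHcy were Il1rl1, which had 23 UMIs in 2 control members, and Cd40lg, and in the WD library they were Rnf128, Gm43305 and Lmo4.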

How the data were processed

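The authors deposited UMI counts per gene and barcode, not normalized, for barcodes called as cells. Per the file headers, Cell Ranger 4.0.0 wrote them, while the submitters' processing notes name Cell Ranger 2.2.0 and mm10. Per the labels' protocols, a Chromium 3′ v3 kit was used. The deposited features and barcodes files pair each count with 1 of 32285 genes.

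Members were found by the limits given at the start of the results. The only step against doublets was the demand for no Cd79a and Csf1r UMI; no doublet caller was run. Classes were compared on summed counts with edgeR 4.0.16 in R 4.3.3 (TMM scaling, filterByExpr, library block), checked on simulated data; DESeq2 1.42.0 was an alternative. SE is the size of the log2 fold change divided by the square root of the F value of the quasi-likelihood test. Levels are CPM of the summed counts. Shares carry Clopper-Pearson, levels Poisson and ratios conditional binomial intervals, exact, at 95%, for counting error only; ratios added 0.5 to each sum. Thinned values drew 1000 UMIs per barcode; 0 members and 2 and 1 other CD3 barcodes of the libraries labelled HHcy and WD were shallower. Per library, members totalled 109934 to 154551 UMIs, so a gene of 10 CPM rests on 1 or 2 UMIs.

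Named genes were the 12 highest and 12 lowest called genes with 1 sign in all libraries, the genes of 22 tested lists, and the 8 highest and lowest ratios between libraries; others are said to be chosen after their values were seen. Some genes that the rule names are not reported here. The members and lists were chosen with earlier results of these data known. The p-values use libraries of different treatments as replicates, and nothing in the labels used here says how many animals each holds. Loci come from GENCODE M21, and promoters from RefSeq (GRCm38.p6).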

Additional observations from a re-analysis of the deposited data

Results flagged for a closer look

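Barcodes with a sum of at least 2 UMIs over the 4 marker genes were more often outside the members than inside. Of the kept barcodes, 21 in the control library, 69 in that labelled HHcy and 60 in the WD library held the markers together with Cd79a or Csf1r RNA and entered no comparison. A further 14, 11 and 13 barcodes with the markers had over 10% mitochondrial UMIs or under 200 detected genes. These counts were listed and not tested.

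The 5 list genes below, each with at least 20 UMIs over all members and under 50% of them in 1 member, were at least 2-fold higher in members than in other CD3 barcodes of 1 library and at least 2-fold lower in another. The differences between libraries were not tested. Cd81, a tetraspanin, had log2 differences of -1.30, 0.29 and 1.30 in the order control, labelled HHcy and WD. Cd40lg had 1.85, -1.13 and -0.23. Hspa1a, a heat shock gene that responds to tissue digestion, had -1.92, 1.05 and -1.56. Ifitm3, an interferon-induced gene, had -1.91, 0.69 and 1.13, with 78.6% of its UMIs in the library labelled HHcy in 1 member. Il1rl1, the receptor of interleukin-33, had 1.08, -3.11 and 1.22. Its 23 control UMIs lay in 2 members. In the WD library it was read in 2 members, and 1 UMI was left without barcodes rich in stromal, mast cell or Cd74 UMIs. The limit of 50% held over all members and not within each library.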

How the results depend on the processing

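The members' share of CD3 barcodes stayed within its main interval in every library under the 8 other rules tried. Of the 171 genes called higher and 86 called lower, none was called in the opposite direction under any setting, while the counts moved. DESeq2 gave 45 lower. No filter on low counts gave 319 lower, with 44.1% of calls higher against 66.5%. Leaving out each library in turn gave 30 to 187 higher and 19 to 80 lower, the fewest without the control library. Thinning to 1000 UMIs gave 48 and 29, of 846 genes tested. Removing multiplets by 13 further genes gave 97 and 30 of 2539 tested, and S100a9 turned to 0.14 there (edgeR adjusted p = 0.915). Members with Trdc and no Trac gave 76 and 45, Cd8 barcodes as the comparison gave 142 lower, and Cd4 barcodes gave 108 higher. Members and other CD3 barcodes are compared within each library by the library block, which is the main fit, and without it the counts were 202 and 115. Between groups, no paired analysis was possible because each group is 1 library. Of 74 named genes under these settings, 930 values kept their call, 125 lost it and 12 gained it.

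Counts of genes over 2-fold between libraries follow the limit on UMIs. A limit of 50 UMIs gave 28 higher and 34 lower in the library labelled HHcy, and 45 and 42 in the WD library. Thinning gave 10 and 15, and 18 and 16. Removing multiplets by 13 genes gave 63 and 106 higher. Ly6a in the WD library turned from 1.5 to -0.18 without barcodes rich in RNA of other cell types. Thinned to 1000 UMIs, the share of members with a UMI was 52.4% (labelled HHcy) and 60.0% (WD) for Trdc, 12.5% (control) and 30.0% (WD) for Il17a, 6.25%, 14.3% and 5.00% in library order for Trac, and 9.52% (labelled HHcy) and 10.0% (WD) for Trdv4, against 81.0% and 85.0%, 37.5% and 55.0%, 50%, 47.6% and 30.0%, and 42.9% and 40.0% at full depth. An unread gene in a member is therefore weak evidence of absence.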

Other observations

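Some single genes outside the lists were higher in members than in other CD3 barcodes. They were picked from the called genes after their values were seen, with no count of the related genes that were not called, so they show nothing of a pathway as a whole. Nr1d1, Nr1d2 and Nfil3 are transcriptional repressors of the circadian clock, of which Nr1d1 and Nfil3 are also known as regulators of type 17 T cells. Nr1d1 stood at 164, 126 and 123 CPM in members against 8.62, 8.16 and 19.7 CPM outside, in the order control, labelled HHcy and WD (log2 3.45, SE 0.41, edgeR adjusted p = 0.00151), and was read in 29 of 57 members. Nr1d1 passed the filter on low counts through the member sums alone and could only be called higher. Nr1d2 had a log2 fold change of 1.72 and Nfil3 of 1.90. Without barcodes rich in stromal, mast cell or Cd74 UMIs the 3 values were 3.89, 1.89 and 2.21, each still called. The times of day at which the groups were taken are not given in the labels used here.

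Of genes for enzymes of glycan assembly, Mgat5, which adds branches to N-glycans, stood at 146, 133 and 162 CPM against 17.2, 17.2 and 19.7 CPM (log2 2.96, SE 0.31, edgeR adjusted p = 0.000779) and was read in 32 members. The sialyltransferases St3gal3, St3gal6, St6galnac3 and St6galnac6 had log2 fold changes of 3.11, 2.14, 2.56 and 2.77. Man2a2 and Gcnt2 had 1.84 and 2.37, and Chst11 was also called higher (edgeR adjusted p = 0.0457). Irak2, Irak3 and Tnfaip3, which act in or restrain signals of interleukin-1 and Toll-like receptors, had log2 fold changes of 2.06, 2.81 and 1.08. Tnfaip3 was read in 55 of 57 members. Mgat5, St3gal3, St6galnac3, St6galnac6, Gcnt2, Chst11 and Irak3 passed the filter on low counts through the member sums alone and could only be called higher.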
